A study of Brassica napus with 3 samples.

Results

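Short scaffolds of the Brassica oleracea reference, the small pieces of a genome assembly, were examined for trimethylation of histone H3 at lysine 4 (H3K4me3) in canola leaves. A scaffold was selected on the measured summit positions: it counted as short when its highest summit, over the lists of both lines together, lay below position 100000. This rule gave 457 of the 1287 scaffolds that carried any summit. They held 1603 of the 36371 control summits, 4.41% (95% Wilson interval 4.20 to 4.62), and 1805 of the 40707 PEG1 summits, 4.43% (4.24 to 4.64). Scaffold lengths are not part of the lists, so a scaffold that is long but marked near its start alone also entered the group. Just inside the limit lay ERB30204, ERB30195 and ERB30027, with highest summits at 99926, 99753 and 99338. Just outside lay ERB30120, ERB30186 and ERB30103, at 101245, 102059 and 102353.

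H3K4me3 is deposited by methyltransferases of the COMPASS type and sits on the first nucleosomes of transcribed genes. In plants, as in other eukaryotes, its peaks therefore mark the promoter-proximal ends of active genes, and its amount broadly follows transcription. In a draft assembly, short scaffolds are the pieces that were not joined to longer ones. Such pieces are often bounded by repeats, and can hold genes cut at their ends as well as collapsed or duplicated copies of sequences found elsewhere.

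Both libraries came from leaf 4 of untreated Brassica napus plants that were 26 days old and of the L. spp. oleifera (Metzg) Sinsk. f. biennis cultivar. B. napus is an allotetraploid whose C subgenome descends from B. oleracea. One H3K4me3 library was from the control line and the other from PEG1, an epiline selected within it, and the series asks how the selection altered the distribution of the mark. PEG1 is a single line, the labels give no replicate, and the library made without antibody from the control line was not analysed here. The lists hold 1 position and 1 score for each peak, and neither read depth nor an annotation of this assembly was at hand, so summits are given by scaffold and position (1-based, BGI scaffolds version V2 of TO1000) and were not assigned to genes. With 1 library per line no difference between lines has a replicate check, no p-value is given, and the intervals cover counting error only.

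Most short scaffolds carried only a few summits in either line. In the control, 172 scaffolds held 1 summit, 52 held 2 and 41 held 10 or more. In PEG1, 176 held 1, 66 held 2 and 53 held 10 or more. The median was 2 summits per scaffold in either line, against 26 in the control and 29 in PEG1 on the 830 longer scaffolds, a contrast that the choice of the scaffolds sets. The tenth of the short scaffolds with the most summits, 45 of them, held 36.4% of the control and 35.4% of the PEG1 summits. PEG1 had more summits than the control by a ratio of 1.13 (exact interval 1.05 to 1.21), and on the longer scaffolds by 1.12 (1.10 to 1.14). The excess on short scaffolds cannot be told apart from the length of the PEG1 list. When PEG1 was limited to as many of its best-scored summits as the control list holds, the ratio on short scaffolds was 1.00. Lists of equal length fix the ratio over all scaffolds at 1, so this value is largely set by construction and nothing is read from it.

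**Figure D1:**
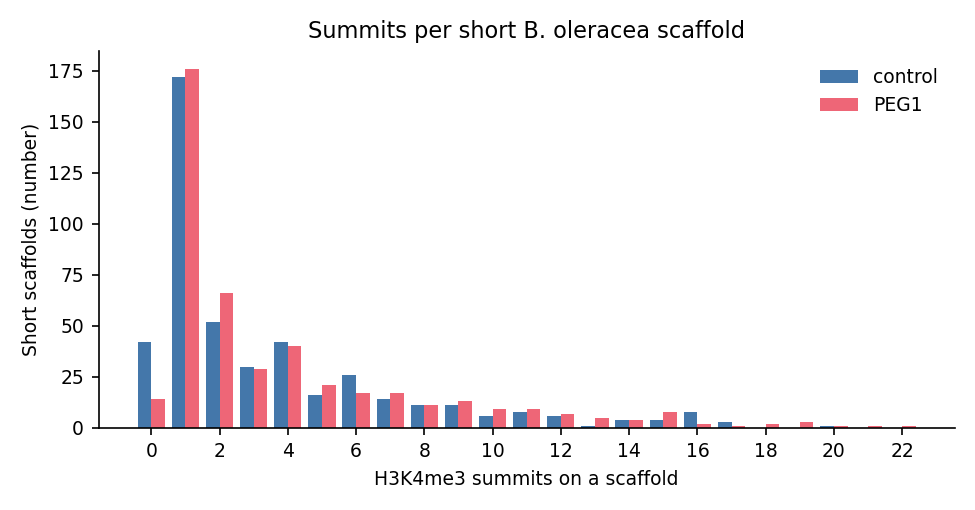
Number of short scaffolds (vertical axis) against the number of H3K4me3 summits on the scaffold (horizontal axis), for the control and the PEG1 library. Bars at 0 are scaffolds with summits of the other line only, 42 without a control summit and 14 without a PEG1 summit.

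Scaffold by scaffold, 235 of the 457 (51.4%) had equal numbers of summits in both lines, 167 (36.5%) had more in PEG1 and 55 (12.04%) had more in the control. On the longer scaffolds 10.5% had equal numbers, 81.6% had more in PEG1 and 7.95% had more in the control. The numbers differed by 0 or 1 on 394 short scaffolds, 86.2%. Small counts, which the rule selects, favour equal or nearly equal numbers, so these shares are not read as closer agreement of the lines. The largest excess of PEG1 was 5 summits and occurred on ERB30311 (16 PEG1 and 11 control summits), ERB30176 (22 and 17), ERB30312 (11 and 6) and ERB30346 (13 and 8). No scaffold had a control excess above 2, and 6 had that excess, among them ERB30235 (15 control and 13 PEG1 summits) and ERB30177 (16 and 14).

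**Figure D2:**
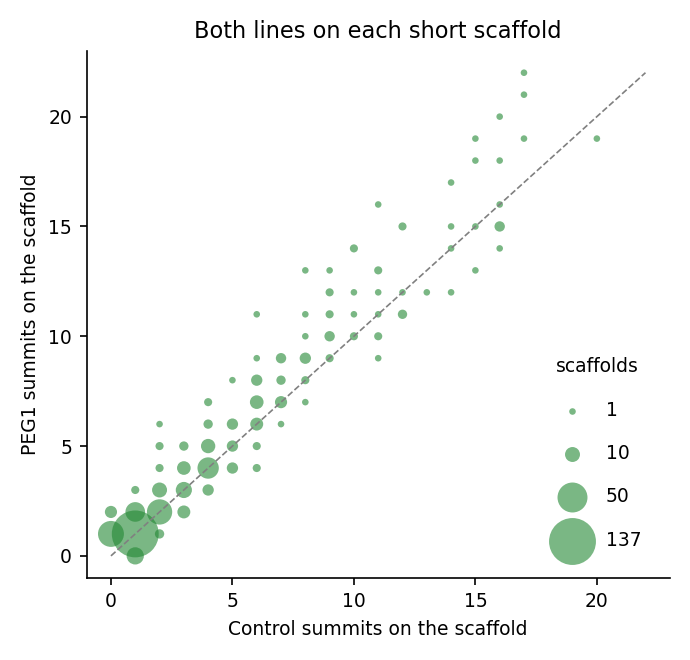
PEG1 summits (vertical axis) against control summits (horizontal axis) on each short scaffold, the area of a point growing with the number of scaffolds at that pair of counts. Points lie along the dashed line of equal numbers, and the largest point, at 1 summit in each line, stands for 137 scaffolds.

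The 5 scaffolds with the most summits carried 16 to 20 in the control and 19 to 22 in PEG1. On ERB30176 the 17 control and 22 PEG1 summits ran up to position 95475, and 14 of each list were matched, that is, lay no more than 150 bp from one in the other list. On ERB30210 there were 20 control and 19 PEG1 summits up to 90780, of which 13 in each list matched. ERB30199 had 17 control and 21 PEG1 summits up to 99016, with 16 matched, the closest agreement among these scaffolds. ERB30116 had 17 and 19 summits up to 99065, with 13 matched, and ERB30230 had 16 and 20 up to 79104, with 12 matched. Over these 5 scaffolds, 21 of 101 PEG1 summits (20.8%) and 7 of 87 control summits (8.05%) lay more than 500 bp from the other list, shares close to the 18.4% and 8.95% over all scaffolds. More than 500 bp from anything in the other list were 6 of PEG1 and 1 of the control on ERB30176, 4 and 0 on ERB30199, 3 and 1 on ERB30116, and 6 and 2 on ERB30230, whereas ERB30210 had 2 of PEG1 and 3 of the control.

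Scaffolds with a single summit in each list were the most frequent kind, and on most of them the 2 positions lay close together. Of these 137 scaffolds, 120 had their summits within 150 bp of each other, 87.6% (81.03 to 92.1), with a median distance of 30 bp, and 2 had them over 1000 bp apart. Over all scaffolds 77.2% of the control and 69.0% of the PEG1 summits were matched. Asking for 1 summit in each list leaves out scaffolds marked in 1 line alone, and 55 of the 137 had positions up to 1000 only. The higher share is thus partly set by the choice, and nothing is read from it. On 79 scaffolds the highest summit lay at or below position 1000, and 55 of them held 1 summit in each list. Their 62 control summits began at position 120 and their 72 PEG1 summits at position 114. Of the control summits there, 85.5% (74.7 to 92.2) had a PEG1 summit within 150 bp, and of the PEG1 summits 73.6% (62.4 to 82.4) had a control summit. The shares over all scaffolds, 77.2% and 69.0%, lie inside these intervals. Positions up to 1000 leave little room for distance, so the shares on these 79 scaffolds are also partly set by their choice. Scores on these 79 scaffolds ranged from 1.33 to 74.7 in the control (median 14.5) and from 2.67 to 94.3 in PEG1 (median 19.6), on the −log10 scale of significance on which the authors' peak caller gave them.

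A total of 401 short scaffolds (87.7%) were marked in both lines, 42 (9.19%, 6.87 to 12.2) in PEG1 alone and 14 (3.06%, 1.83 to 5.08) in the control alone. Over all scaffolds the shares were 3.34% for PEG1 and 1.09% for the control. The rule gathers scaffolds with few summits, and these are more easily marked in 1 list alone. The higher shares on short scaffolds are therefore set by the choice, and nothing is read from them. All 14 control-only scaffolds were short, and of the 43 PEG1-only scaffolds 1 was longer, ERB30112, with PEG1 summits at 21820 (score 7.03) and 108663 (5.96). Of the scaffolds with 1 PEG1 summit, 79.5% (72.99 to 84.8) had a control summit, of those with 2 to 4, 95.6% (90.6 to 97.9), and of the 132 with 5 or more, every one. Of the scaffolds with 1 control summit, 91.9% (86.8 to 95.1) had a PEG1 summit, and of the 243 with 2 or more, every one. With equally long lists 27 scaffolds were marked in PEG1 alone and 19 in the control alone. Shortening the PEG1 list can only lower the first count and raise the second, so nothing is read from this change.

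The summits on scaffolds of 1 line were weak. The 14 control-only scaffolds held 14 summits with scores from 1.33 to 8.34 and a median of 4.73, against 16.4 on the other short scaffolds, and 0 of the 14 reached the median of the control list. The 42 PEG1-only scaffolds held 48 summits, with scores from 1.51 to 23.1 and a median of 6.01, against 20.9 on the other short scaffolds, and 1 of the 48 reached the median of the PEG1 list. Summits more than 500 bp from the other list on short scaffolds marked in both lines had similar scores, with medians of 4.90 for 130 control summits and 6.08 for 298 PEG1 summits. Scaffolds of 1 line held 14 of the 144 control summits on short scaffolds that had no PEG1 summit within 500 bp (9.72%), and 48 of the 346 such PEG1 summits (13.9%).

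**Figure D3:**
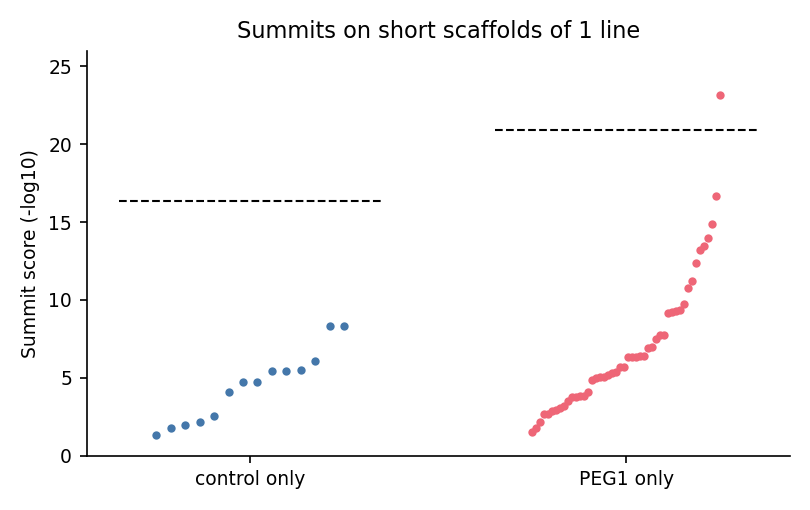
Score of each summit (vertical axis, −log10 scale) on the short scaffolds marked in the control only (14 summits) or in PEG1 only (48 summits), sorted from low to high, with the dashed line at the median score of the same list on the other short scaffolds (16.4 and 20.9). Only 1 summit, of PEG1, lies above its dashed line.

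The strongest PEG1-only summit lay at position 200 of ERB36752, with a score of 23.1, followed by those at position 114 of ERB41900 (16.6), position 161 of ERB36994 (14.9), position 1927 of ERB30593 (13.99) and position 2943 of ERB30926 (13.5). The first 3 of these lie within 200 bp of the scaffold start. The strongest control-only summits were at position 1493 of ERB30913 and position 3177 of ERB30940, both with a score of 8.34, at 765 of ERB32515 (6.11), 758 of ERB31984 (5.48) and 327 of ERB35240 (5.46). No control-only scaffold had 2 summits, and 6 PEG1-only scaffolds did. ERB30188 had PEG1 summits at 50783 (score 4.96) and 52169 (3.79), and ERB30281 at 2599 (2.88) and 7057 (7.49). ERB30548 had them at 1354 (4.89) and 9685 (3.79), ERB30559 at 2457 (9.22) and 4405 (5.37), ERB30593 at 1046 (9.16) and 1927 (13.99), and ERB31080 at 1627 (1.51) and 2208 (5.33). The highest summit, the value that chose the scaffolds, lay at or below position 5000 on 29 of the 42 PEG1-only and 10 of the 14 control-only scaffolds, and on 145 of all 457. A scaffold with 1 or 2 summits tends to have a low highest position, so nothing is read from this. The median highest position was 1837 on PEG1-only and 1078 on control-only scaffolds, against 30383 on the 401 scaffolds of both lines.

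Summit positions on the short scaffolds were compared between lines and set against the longer scaffolds. Within 150 bp, 79.04% of the control summits on short scaffolds (76.98 to 80.96) had a PEG1 summit, against 77.1% (76.7 to 77.6) on longer scaffolds and 77.2% over all. The difference was 1.91 percentage points (95% Newcombe interval -0.20 to 3.88). Of the PEG1 summits on short scaffolds 70.2% (68.04 to 72.3) had a control summit, against 68.9% (68.5 to 69.4) on longer scaffolds and 69.0% over all, a difference of 1.26 points (-0.94 to 3.38). Both intervals include 0. With only summits at or above the median score of their list the difference was 2.01 points (-0.85 to 4.58) in the control and 3.48 points (0.43 to 6.32) in PEG1, where the interval no longer includes 0. The matched positions were a median of 29 bp apart on the short and on the longer scaffolds. At the other end of the scale, 144 control summits on short scaffolds (8.98%) and 346 PEG1 summits (19.2%, 17.4 to 21.05) lay more than 500 bp from the other list, and over all scaffolds the shares were 8.95% and 18.4%.

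Better-scored summits were matched more often, on short and on longer scaffolds. Each ranked list was cut at its quartiles into 4 score classes of about equal size, with tied scores kept together. In the weakest, 58.8% of the control summits on short scaffolds (54.1 to 63.3) and 33.2% of the PEG1 summits (29.1 to 37.6) were matched within 150 bp. In the strongest the shares were 93.5% (90.6 to 95.5) and 91.8% (88.9 to 93.96). Against the longer scaffolds, 7 of the 8 differences within classes had intervals that included 0. The exception was the third control class, with 88.4% on short and 84.03% on longer scaffolds, a difference of 4.35 points (0.74 to 7.26). The scores of paired summits also ranked alike: over 1267 mutual nearest pairs on short scaffolds Spearman's rho between the control and the PEG1 score was 0.87, and over 26817 pairs on longer scaffolds 0.85, as a description of these libraries.

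**Figure D4:**
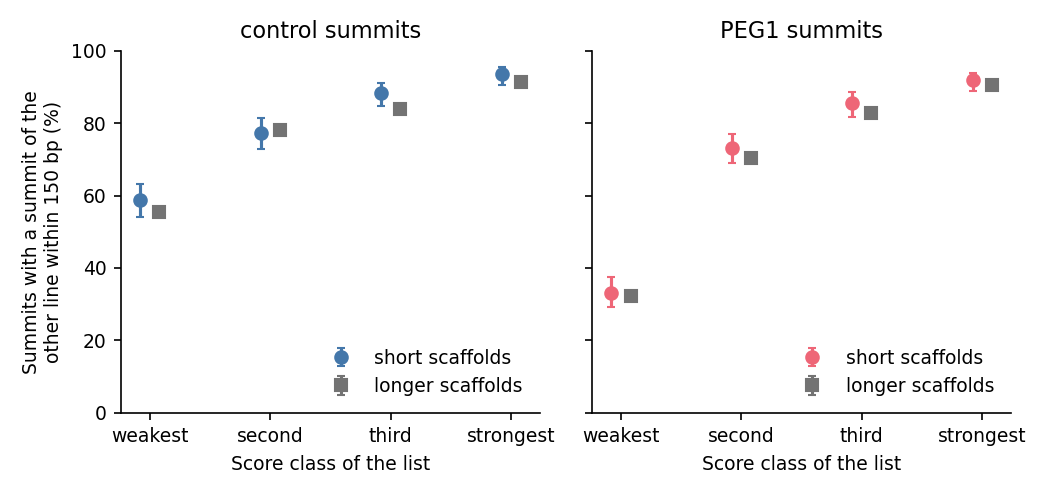
Share of summits matched to the other list within 150 bp (vertical axis, percent) in 4 classes of score (horizontal axis), for control summits and PEG1 summits, on short scaffolds (coloured circles) and longer scaffolds (grey squares), with 95% Wilson intervals. Shares climb from 58.8% to 93.5% in the control and from 33.2% to 91.8% in PEG1 on short scaffolds.

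The 5 best-scored summits of each line without a partner within 500 bp all had one within 1717 bp. In PEG1 the strongest unpaired summit on short scaffolds was at position 5085 of ERB30246 (score 63.9), 771 bp from a control summit. The next lay on ERB30221 at 90509 (53.1), ERB30319 at 41318 (49.9), ERB30295 at 42607 (48.7) and ERB30202 at 60768 (47.2), at 532 to 839 bp from the nearest control summit. In the control, ERB30176 at 56550 (45.1) lay 558 bp from a PEG1 summit, and ERB30318 at 53501 (40.8) lay 1717 bp away. ERB30221 at 91172 (35.5), ERB30384 at 22773 (34.4) and ERB30284 at 8655 (31.1) lay 512 to 664 bp away. On ERB30221 the unpaired control summit and the unpaired PEG1 summit are each other's neighbours, 663 bp apart.

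Very strong summits were somewhat more frequent on short scaffolds than on longer ones, in both lines. Among the best-scored 1% of the control list were 28 of the 1603 summits on short scaffolds, 1.75% (1.21 to 2.51), against 0.98% (0.88 to 1.09) on longer scaffolds, a difference of 0.77 percentage points (0.22 to 1.54). In PEG1 it was 30 of 1805, 1.66% (1.17 to 2.36), against 0.97% (0.88 to 1.07), a difference of 0.69 points (0.18 to 1.40). The lines are not independent here, since 17 of these summits were among the best 1% in both lists within 150 bp. All 28 and all 30 were matched, and they were spread over 28 scaffolds in the control and 29 in PEG1. The matched share of the best 1% on longer scaffolds was not computed, so full matching is not read as particular to short ones. In the strongest score class, the matched share on longer scaffolds was 91.4% in the control and 90.6% in PEG1. The middle of the distribution did not shift the same way: the median score on short and longer scaffolds was 16.05 and 16.5 in the control, and 20.3 and 21.2 in PEG1. With the limit at 200000 instead of 100000 the differences for the best 1% were 0.082 points (-0.22 to 0.47) in the control and 0.017 points (-0.26 to 0.37) in PEG1, so the higher share depended on where the limit was set.

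The single strongest summit of the short scaffolds was the same in both lines. It lay on ERB31285, where the control list gives position 411 (score 114.04) and the PEG1 list 426 (122.1). ERB31285 otherwise carried only 1 further summit, of PEG1, at position 1375. ERB30433 was also among the best 5 in both lists, with a control summit at 14599 (98.9) and a PEG1 summit at 14578 (104.97). Further strong control summits lay on ERB30191 at 20876 (108.1), ERB30308 at 14275 (97.5) and ERB30276 at 32383 (95.5), each with a PEG1 summit within 30 bp. Further strong PEG1 summits lay on ERB30339 at 40070 (118.9), ERB30311 at 49381 (113.9) and ERB30074 at 82839 (107.5), each with a control summit within 42 bp. Within its own list the control partner at ERB30311, at the identical position 49381, scored 57.4 and ranked in the best 1.78%, while the PEG1 summit ranked in the best 0.052%. Scores depend on the depth of a library and are not read as a difference in the mark between lines.

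Density was compared at scaffold starts, because dividing by the highest position favours scaffolds that end in a summit. In the first 20 kb of the 237 short scaffolds whose highest summit lay beyond 20 kb, there were 6.69 control summits per 100 kb (exact Poisson interval 5.97 to 7.47) and 7.43 PEG1 summits (6.67 to 8.24). The first 20 kb of the 830 longer scaffolds held 6.30 (5.93 to 6.69) and 6.93 (6.53 to 7.34). The intervals overlap in both lines. At each window size a short scaffold was counted only if it carried a summit beyond the window, while all longer scaffolds passed. This condition uses the value that chose the scaffolds and can favour densely marked ones, so the densities at 10, 20 and 40 kb are a description and are not read as a difference. No control summit was found in the first 20 kb of 34.6% of these short scaffolds and 35.8% of the longer ones, and no PEG1 summit in 32.1% and 31.8%. In the first 40 kb the densities were farther apart, 7.82 (7.19 to 8.50) against 6.61 (6.33 to 6.89) in the control and 8.87 (8.19 to 9.59) against 7.33 (7.04 to 7.62) in PEG1. The first 10 kb gave 6.02 and 5.73 in the control and 6.61 and 6.49 in PEG1. Up to the highest summit, the value that chose the scaffolds, the short scaffolds held 10.3 control and 11.6 PEG1 summits per 100 kb, against 7.75 and 8.68 on the longer ones, and nothing is read from this.

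**Figure D5:**
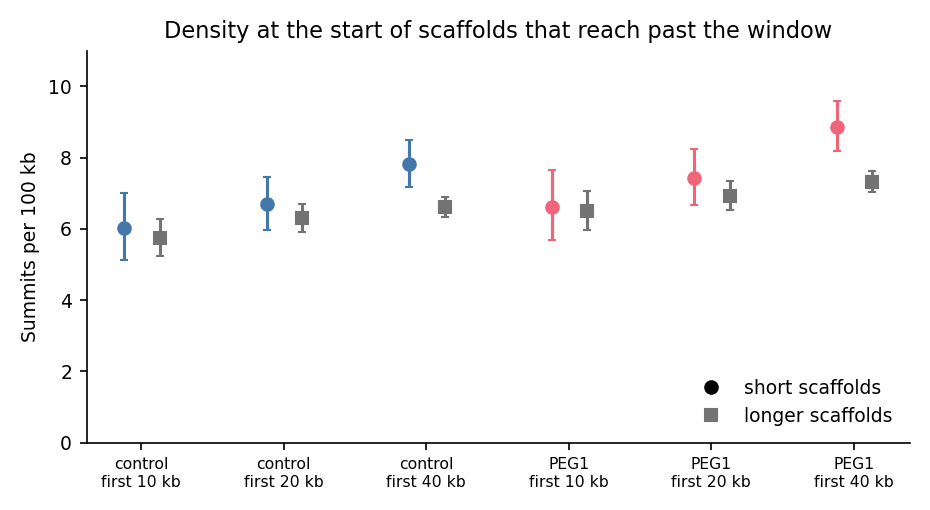
Summits per 100 kb (vertical axis) in the first 10, 20 and 40 kb of scaffolds whose highest summit lies beyond that window, for control and PEG1 (horizontal axis), on short scaffolds (coloured circles) and longer scaffolds (grey squares), with 95% exact Poisson intervals. The intervals of short and longer scaffolds overlap at 10 and 20 kb and part at 40 kb.

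The first 1000 bp of a scaffold carried fewer summits per length than the stretch from 2000 to 20000 bp, on short and longer scaffolds. The intervals overlapped in PEG1 on the short ones. In the first 1000 bp of the 237 short scaffolds there were 2.95 control summits per 100 kb (1.19 to 6.09) and 3.80 PEG1 summits (1.74 to 7.21), and from 2000 to 20000 bp there were 7.06 (6.28 to 7.90) and 7.81 (6.99 to 8.69). The values for the first 1000 bp of short scaffolds rest on 7 control and 9 PEG1 summits. On the longer scaffolds the first 1000 bp held 3.13 (2.05 to 4.59) and 3.98 (2.74 to 5.58), and the stretch from 2000 to 20000 bp held 6.64 (6.23 to 7.07) and 7.20 (6.78 to 7.65). From 1000 to 2000 bp the values were low as well, 3.80 control and 4.22 PEG1 on short scaffolds, and 3.37 and 4.94 on longer ones. On short scaffolds these intervals overlapped those from 2000 to 20000 bp. Among all short scaffolds, 54 control summits (3.37%) and 60 PEG1 summits (3.32%) lay at or below position 500, against 0.03% and 0.04% on longer scaffolds, as scaffolds that hold little else require. The median distance between neighbouring summits on short scaffolds was 5197 bp for the control (quartiles 2484 and 11231) and 4727 bp for PEG1 (2286 and 10009). On the longer scaffolds the medians were 6517 and 5868 bp, but a short scaffold cannot hold the widest gaps, so the distances are not comparable between the groups. No neighbours on short scaffolds were closer than 381 bp in the control and 388 bp in PEG1.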

How the data were processed

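H3K4me3 was profiled by native ChIP-seq: 1.5 g of leaf powder, 30 U of micrococcal nuclease for 10 minutes and 2.5 ug of antibody, per the labels' protocols. The authors' lists give peak summits, and their deposited scores are on a −log10 scale. The labels leave it unsaid if these stem from p-values or q-values; the lowest lies just above the −log10 of 0.05. MACS2 2.0 called the peaks, per the submitters' processing notes. Not given in the sources used here: aligner, background library, and how reads that fit several places were handled, whose part in signal on short scaffolds was not tested. Read depth is unknown. The lists on the B. rapa reference were not used here.

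Both lists were split by the highest summit position of each scaffold. Summits were matched to the nearest summit of the other list on the same scaffold; matched means within 150 bp, unpaired no summit within 500 bp. Shares carry Wilson intervals, differences Newcombe intervals, ratios exact conditional intervals and densities exact Poisson intervals, all at 95%. Sites of 1 scaffold are not independent, so the intervals may be too narrow. The matching code was run on simulated lists whose settings fixed the outcome, which checks the code only. Closely spaced summits and shifts beyond the matching distance were not covered. Named regions were the 5 scaffolds with the most summits, the 5 best-scored summits per line (all, unpaired, or on scaffolds of 1 line), scaffolds of 1 line with 2 or more summits, and the 3 scaffolds on either side of the limit; the comparison of the best 1%, the scaffolds with the largest excess and those singled out by scaffold code were chosen after their values were seen. The scaffolds, rules and alternatives were chosen with earlier results of these data known. Tools were SciPy 1.17.1, pandas 2.3.3 and NumPy 2.4.6 under Python 3.11.15, with figures from matplotlib 3.10.9.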

Additional observations from a re-analysis of the deposited data

How the results depend on the processing

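With 1 library per line none could be left out. Of 67 alternative values, 41 stayed within the interval of the reported value or, for counts, within 1.5 times of it. Values below are control then PEG1. The matched shares were 54.7% and 48.6% at a distance of 50 bp, 87.4% and 77.6% at 300 bp, 91.02% and 80.8% at 500 bp, and 94.6% and 85.2% at 1000 bp, which a wider distance raises by construction. They were 82.3% and 74.8% with summits at or above the list median score, and 76.5% and 76.4% with equally long lists. Matched summits pair off between the lists, so equal lengths make the last 2 shares nearly equal by construction. With those lists the ratio of summits was 1.00, largely by construction. The PEG1-only scaffolds then numbered 27, a count that a shorter PEG1 list can only lower. Short minus longer scaffolds, the matched share within 1000 bp differed by -0.84 (-2.08 to 0.19) and -1.20 points (-2.95 to 0.40), intervals that include 0. In PEG1 it differed by 3.48 points (0.43 to 6.32) at or above the median score. The density in the first 20 kb was 5.77 and 6.55 summits per 100 kb with the limit at 50000, and 3.44 and 3.67 at or above the median score, which removes summits by construction. It was 7.82 and 8.87 in the first 40 kb, and 6.61 for PEG1 in the first 10 kb. For the best 1%, limits chosen after the data were seen gave differences of 0.60 (-0.19 to 2.14) and 0.57 points (-0.18 to 1.96) at 50000, and 0.082 and 0.017 points at 200000. Depth is unknown, so whether a deeper control library would have marked the 42 PEG1-only scaffolds cannot be read from these lists.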

Other observations

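The code numbers that end the scaffold names ran against the highest summit position (Spearman's rho -0.996 over 1287 scaffolds, and -0.95 over the 457 short ones, as a description). Every code from 29322 to 29999 had a summit. Of each 100 codes, 99 had one from 30200 to 30299, 89 from 30300 to 30399 and 57 from 30400 to 30499. From 30500 to 30999 it was 84 of 500 codes (16.8%, 13.8 to 20.3), from 31000 to 31999 29 of 1000 (2.90%, 2.03 to 4.13), and from 32000 to 41900 53 of 9901 (0.54%, 0.41 to 0.70). The sources used here do not say if each number is a scaffold.

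A few short scaffolds stood out from their neighbours in code, and were singled out after their values were seen. ERB30151 had 1 control and 1 PEG1 summit, the highest at 2922, while the 10 scaffolds nearest in code had highest summits from 87517 to 118976 and a median of 7 control and 9.5 PEG1 summits. ERB30188, marked in PEG1 alone up to 52169, lay among 10 scaffolds reaching 57492 to 102059 with at least 4 summits of each line. ERB30281, marked in PEG1 alone up to 7057, lay among 10 scaffolds reaching 35046 to 76079. These had at least 1 control and 2 PEG1 summits, so its 2 PEG1 summits equalled the lowest count among them. Low positions also occurred on scaffolds marked in both lines. ERB30240, with 2 summits of each line, reached 4802, between ERB30239 at 78624 and ERB30241 at 81736. ERB30288, with 1 of each, reached 3922, between ERB30287 at 48085 and ERB30289 at 68629. Nothing is read from the selection about scaffolds marked in PEG1 alone. In all, 33 of the 457 short scaffolds had a code below 30186, the highest code of a longer scaffold.

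Among mutual pairs at different positions the PEG1 summit lay at the higher coordinate in 53.2% of 1235 pairs on short scaffolds (50.4 to 55.97) and in 49.9% of 26264 pairs on longer ones (49.3 to 50.5), a difference of 3.26 points (0.41 to 6.09). This was 1 of many comparisons read from the same lists, without a replicate.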
